A study of Mus musculus with 4 samples.

Results

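The genes described here are 40 genes that dividing cells use to copy and to separate their chromosomes: 26 mitosis genes and 14 replication genes. They form a list whose rule uses no measured value, though the list was chosen with earlier results of these data known. All 40 were found by Ensembl identifier among the 30406 genes shared by the references of the 4 libraries. The libraries are single-cell suspensions of the dissected mouse common bile duct, the extrahepatic tube that carries bile from liver to gut, profiled with droplet-based 3′ sequencing that counts transcripts by unique molecular identifiers (UMIs). Libraries labelled Wild_Type_Replicate1, 2 and 3 come from untreated ducts of wild type genotype. The library labelled Prom1_BcatGOF, also untreated, comes from a duct with gain of function of Ctnnb1 (which encodes beta-catenin) in a mosaic of cells, and is called the GOF library. The GOF group is 1 library, mosaicism means that not every cell carries the change, and the label names Prom1 without saying what it drives. Age, sex, strain and construct were not given. The comparison asks where in the normal duct the division genes were expressed, and how each compartment of the mosaic duct stood against that range.

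A cell that is about to divide first licenses its replication origins (Cdc6, Cdt1), loads the helicase made of the Mcm subunits, and makes deoxynucleotides (Rrm1, Rrm2, Tyms) while the sliding clamp Pcna and its partner Pclaf work at the replication fork. It then enters mitosis under cyclin-dependent kinase 1 (Cdk1) with its A and B cyclins, attaches chromosomes to the spindle through the kinetochore, and leaves mitosis when the anaphase-promoting complex with Cdc20 and Ube2c destroys the cyclins. Epithelium of the adult bile duct is known to turn over slowly at rest and to divide after injury, while immune cells in tissue include both cells that divide in place and cells, such as neutrophils, that have left the cycle before they enter the blood.

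Transcription of these genes is known to be timed through promoter elements, so the sequences are shown first. E2F factors bind elements upstream of replication genes, and the DREAM and B-MYB–MuvB complexes bind the cell cycle homology region (CHR), often with upstream CCAAT boxes bound by NF-Y, in mitosis genes. RefSeq promoters of build GRCm38.p6, of 300 bases each (250 before to 50 after the gene start), were matched for 32 of the 40 genes, 20 of them mitosis and 12 replication genes. Each was searched on both strands for the CHR letters TTTGAA or TTTAAA, for CCAAT, and for the E2F letters TTTCCCGC, TTTGGCGC or TTTCGCGC, and overlapping matches were allowed. CHR letters occurred in 18 of 20 mitosis promoters (90%), in 4 of 12 replication promoters (33.3%) and in 27.9% of all 27025 promoters. CCAAT occurred in 18 of 20 mitosis promoters, in 9 of 12 replication promoters (75%) and in 37.8% of all promoters. E2F letters had the opposite distribution, with 1 of 20 mitosis promoters (5%), 6 of 12 replication promoters (50%) and 1.91% of all promoters. In the last 100 bases of the window, chosen after the matches were seen, CHR letters stood in 16 of 20 mitosis promoters (80%), in 2 of 12 replication promoters (16.7%) and in 8.34% of all promoters. A match describes letters in this window and is not a measured binding site.

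The promoters of 3 mitosis genes with a CHR match and 3 replication genes with an E2F match are printed 5′ to 3′ on the strand of the gene. The gene start is at base 251, and motif matches of either strand are in capitals. They are examples with a match: Rrm1, Rrm2, Pcna, Mcm7 and Tyms, also described below, had no E2F match. The mitosis genes are Ccnb2, Cenpf and Kif23, whose CHR match nearest the start begins at base 255, 253 and 253. The replication genes are Pclaf, Mcm3 and Mcm5, whose first E2F matches begin at base 246, 270 and 98.
Ccnb2 (chr9:70421505-70421804, strand -): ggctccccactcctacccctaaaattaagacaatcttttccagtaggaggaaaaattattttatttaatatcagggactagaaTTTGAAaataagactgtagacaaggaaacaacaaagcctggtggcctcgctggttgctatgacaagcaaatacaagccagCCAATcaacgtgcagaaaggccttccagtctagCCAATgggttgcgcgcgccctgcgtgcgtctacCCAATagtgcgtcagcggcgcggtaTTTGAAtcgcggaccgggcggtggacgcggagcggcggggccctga
Cenpf (chr1:189688037-189688336, strand -): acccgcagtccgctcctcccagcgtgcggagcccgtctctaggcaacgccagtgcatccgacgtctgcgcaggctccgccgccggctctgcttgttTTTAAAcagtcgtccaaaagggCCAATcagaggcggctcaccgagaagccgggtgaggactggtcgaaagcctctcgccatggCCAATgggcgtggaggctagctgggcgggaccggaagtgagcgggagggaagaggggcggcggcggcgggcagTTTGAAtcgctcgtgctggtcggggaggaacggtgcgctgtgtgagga
Kif23 (chr9:61946750-61947049, strand -): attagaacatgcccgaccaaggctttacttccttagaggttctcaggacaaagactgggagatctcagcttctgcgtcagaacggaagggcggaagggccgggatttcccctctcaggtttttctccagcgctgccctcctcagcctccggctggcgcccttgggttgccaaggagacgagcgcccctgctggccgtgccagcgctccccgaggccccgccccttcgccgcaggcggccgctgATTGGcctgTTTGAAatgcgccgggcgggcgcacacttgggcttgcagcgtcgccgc
Pclaf (chr9:65890073-65890372, strand +): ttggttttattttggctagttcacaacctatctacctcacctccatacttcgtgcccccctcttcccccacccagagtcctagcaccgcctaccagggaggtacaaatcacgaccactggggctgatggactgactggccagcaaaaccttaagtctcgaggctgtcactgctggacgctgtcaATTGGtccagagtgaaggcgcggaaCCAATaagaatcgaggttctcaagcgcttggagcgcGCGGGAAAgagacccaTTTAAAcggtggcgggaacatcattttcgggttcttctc
Mcm3 (chr1:20820263-20820562, strand -): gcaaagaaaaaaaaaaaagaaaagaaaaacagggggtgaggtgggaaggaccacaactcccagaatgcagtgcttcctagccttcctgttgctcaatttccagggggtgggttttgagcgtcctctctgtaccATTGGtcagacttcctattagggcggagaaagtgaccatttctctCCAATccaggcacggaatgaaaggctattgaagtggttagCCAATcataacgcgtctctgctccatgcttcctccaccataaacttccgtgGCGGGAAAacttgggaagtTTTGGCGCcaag
Mcm5 (chr8:75109259-75109558, strand +): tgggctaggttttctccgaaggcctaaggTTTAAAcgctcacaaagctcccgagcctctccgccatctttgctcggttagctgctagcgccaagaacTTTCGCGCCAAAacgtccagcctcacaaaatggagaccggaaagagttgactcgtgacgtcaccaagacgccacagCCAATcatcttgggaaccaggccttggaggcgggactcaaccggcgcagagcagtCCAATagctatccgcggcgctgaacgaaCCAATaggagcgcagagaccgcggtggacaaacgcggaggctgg

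After cells with fewer than 500 genes, cells with over 25% mitochondrial UMIs and the highest doublet scores were left out, the GOF library held 9229 cells and wild-type libraries 1, 2 and 3 held 4334, 2415 and 2058. A kept cell of the GOF library had a median of 7235 UMIs, against 5672, 3531 and 2199 for the 3 wild-type libraries, and pairs of libraries shared 5 to 19 cell barcodes. The GOF matrix was made with another version of the counting software than the wild-type matrices, so genotype and processing cannot be told apart. Cells were assigned to epithelium, immune or stroma (fibroblast, mesothelial, smooth muscle and pericyte, and endothelial) from the number of lineage markers with a UMI, and none of the 40 genes is such a marker. The gates took 5066, 3038, 1578 and 1016 epithelial, 2376, 854, 277 and 133 immune, and 945, 188, 335 and 299 stromal cells in the GOF library and wild-type libraries 1, 2 and 3. Epcam was detected in 96.6% to 99.2% of epithelial cells, 9.13% to 16.5% of immune cells and 6.35% to 16.1% of stromal cells over the 4 libraries, and Ptprc in 63.5% to 92.5% of immune cells and 0.984% to 3.06% of epithelial cells. Wild-type library 2 stood apart outside the epithelium: its level was the highest of the 3 wild-type libraries for 36 of 40 genes in immune cells, 36 in stroma and 38 in fibroblasts, against 4 in epithelium. The shares over all genes were not counted. Results that rest on it are therefore given with and without it.

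In the wild-type duct, division genes were densest in immune cells and sparse in epithelium. UMIs of the 40 genes made up 8.87, 22.1 and 8.30 of every 10000 immune UMIs in wild-type libraries 1, 2 and 3 (13.1 ± 7.82, mean ± SD, n = 3). The corresponding epithelial values were 3.74, 3.00 and 2.57 (3.10 ± 0.594, SD, n = 3). Stroma gave 2.24, 7.82 and 1.84 (3.96 ± 3.34, SD, n = 3), high in library 2 and below epithelium in the other two. Every wild-type immune value lay above every wild-type epithelial value. Of the 40 genes, 35, 40 and 33 had their highest level among the 3 compartments in immune cells in libraries 1, 2 and 3, where a level is the UMIs of a gene per 1000000 UMIs of the compartment (CPM). In the GOF library the order was different: 24 genes were highest in stroma, 12 in epithelium and 4 in immune cells. The shares over all genes were not counted, so these counts by themselves show nothing particular to division genes. UMIs of the 40 genes there made up 7.16 of every 10000 epithelial, 4.91 of every 10000 immune and 7.32 of every 10000 stromal UMIs. A sum over a compartment does not tell more dividing cells from more of these transcripts per dividing cell.

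**Figure D1:**
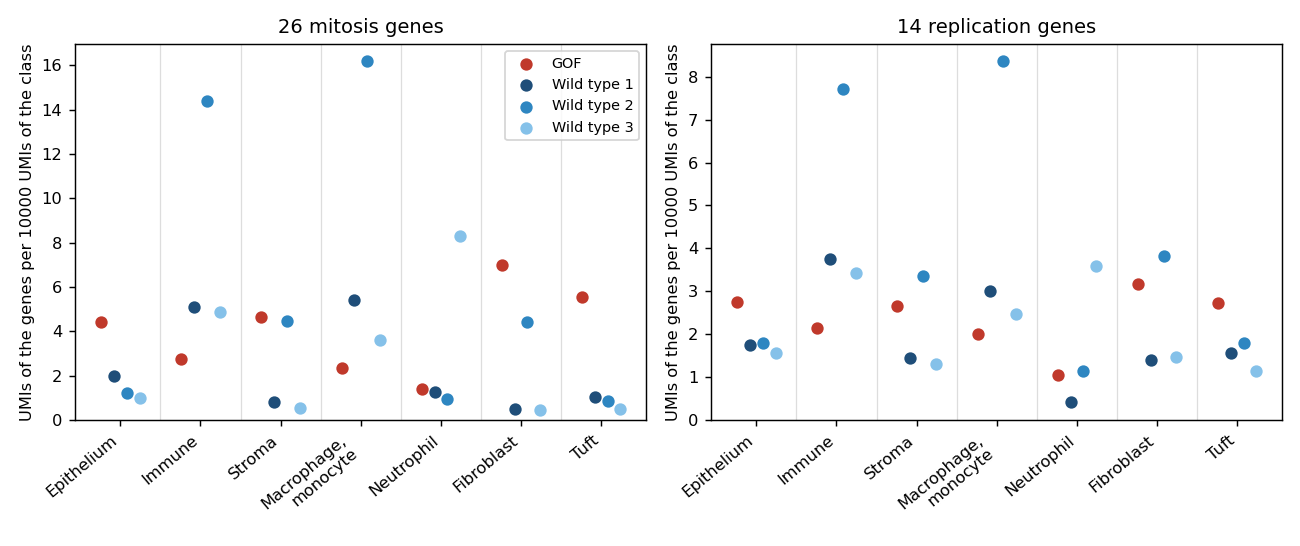
UMIs of the 26 mitosis genes (left) and 14 replication genes (right) per 10000 UMIs of each gated class, 1 point per library. In epithelium the GOF point lies above the 3 wild-type points for both lists, in immune cells below them, and in fibroblasts wild-type library 2 lies far above wild-type libraries 1 and 3.

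Sums per library and compartment were compared by the quasi-likelihood test of edgeR, blocked on library, with Benjamini-Hochberg adjustment over all genes tested. Between wild-type immune cells and epithelium, 27 of the 40 genes were higher in immune cells and 0 were lower, beside a background of 21.2% of all 11990 genes called higher and 23.9% called lower. The lists differed in their counts: 21 of 26 mitosis genes (median log2 difference 2.63) and 6 of 14 replication genes (median 0.82) were called, with a median of -0.13 over all genes. Without wild-type library 1, 2 or 3 the count was 30, 18 or 16, beside 2206 of 11050, 2020 of 10984 and 1917 of 11572 genes. All 40 genes passed the filter on low counts, which was set over all 3 compartments. Genes scarce in epithelium, such as Cenpa, Cenpf, Ccnb2 and Bub1 below, can thus have passed it through immune cells alone. How many did was not counted, so the count, and the calls of such genes, by themselves support no difference. Without the filter 31 were higher and 0 lower, beside 2922 and 3553 of 20447 genes. These libraries are labelled as replicates of 1 group, and nothing in the labels says that they came from separate animals, so the p-values reflect the spread of these samples alone, and that spread may be technical.

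Chromatin and kinetochore genes were higher in wild-type immune cells than in epithelium. Mki67, which coats mitotic chromosomes and is the standard proliferation marker, stood at 8.66, 6.21 and 8.82 CPM in wild-type libraries 1, 2 and 3 of epithelium and at 27.1, 88.9 and 23.1 CPM of immune cells. Its groups did not overlap and its log2 difference was 2.29 ± 0.67 (SE, edgeR adjusted p = 0.0172). Top2a, the topoisomerase that untangles sister chromatids, stood at 12.7, 7.19 and 3.53 CPM in epithelium and 36.1, 125 and 49.0 CPM in immune cells, a log2 difference of 2.91 ± 0.65 (edgeR adjusted p = 0.00411). Of the 4 kinetochore and centromere genes, the largest difference was that of Cenpa, the histone variant that marks centromeres, at 4.31, 3.68 and 3.88 CPM against 35.0, 74.2 and 31.7 CPM. Its log2 difference was 3.52 ± 0.37 (edgeR adjusted p = 2.6e-05), and immune cells were above epithelium in all 3 libraries. Its epithelial level was low, so the limit of the filter given above holds for this call. Cenpf, a large kinetochore protein of late G2, was closer, with 5.64, 4.25 and 4.24 CPM against 8.49, 37.1 and 5.77 CPM and a log2 difference of 1.61 ± 0.59 (edgeR adjusted p = 0.0459). Cenpe and Spc24 were also called higher in immune cells.

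Kinases, cyclins and their destruction machinery followed. Cdk1, the kinase that starts mitosis, stood at 10.0, 5.07 and 5.65 CPM in wild-type epithelium and 26.5, 69.9 and 8.65 CPM in immune cells (log2 difference 2.13 ± 0.57, edgeR adjusted p = 0.0112). Its partner cyclin B2, Ccnb2, stood at 5.33, 1.80 and 3.00 CPM against 19.6, 57.0 and 28.8 CPM (log2 difference 3.23 ± 0.64, edgeR adjusted p = 0.00184). Ube2c, the ubiquitin-conjugating enzyme of the anaphase-promoting complex, stood at 11.3, 3.92 and 3.71 CPM against 35.0, 146 and 37.5 CPM (log2 difference 3.14 ± 0.77, edgeR adjusted p = 0.00666). In all 3 genes library 2 gave the highest immune value, and the lowest immune value was still above that library's epithelium. Across libraries the ranges of Cdk1 overlap, with 8.65 CPM in immune cells of library 3 and 10.0 CPM in epithelium of library 1. The largest difference of any of the 40 genes was that of the checkpoint kinase Bub1, 3.97 ± 0.90, on few UMIs (1 to 26 per library in epithelium, 3 to 25 in immune cells). Of the chromosomal passenger complex, which corrects faulty spindle attachments, the kinase Aurkb differed by 3.71 ± 0.71 and Birc5, which encodes survivin, by 2.64 ± 0.74 (edgeR adjusted p = 0.00159 and 0.0134). Cdca3, Cdca8, Ccna2 and Aurka were called higher as well. Ccnb1, Cdc20, Plk1 and Pbk had differences of 2.04, 1.69, 1.97 and 1.68 that did not pass the test (edgeR adjusted p from 0.0560 to 0.110).

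Among spindle genes, Prc1, Nusap1, Tpx2, Kif11 and Stmn1 were called higher in immune cells, and Kif23 was not. Stmn1 encodes stathmin, which takes up free tubulin, and was the most abundant spindle gene, at 45.6, 31.2 and 13.2 CPM in wild-type libraries 1, 2 and 3 of epithelium and 99.7, 101 and 60.6 CPM of immune cells. Its log2 difference was 1.66 ± 0.23 (edgeR adjusted p = 0.00017). Kif23, the motor that with Racgap1 bundles the central spindle for cytokinesis, stood at 23.9, 16.4 and 14.8 CPM in epithelium and 45.1, 31.9 and 17.3 CPM in immune cells. Its ranges overlap, and the log2 difference of 0.86 ± 0.45 did not pass the test (edgeR adjusted p = 0.144).

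The replication genes split into those with a large gap between compartments and those that did not pass the test. Pclaf, the clamp-associated factor, stood at 10.6, 8.26 and 6.71 CPM in wild-type libraries 1, 2 and 3 of epithelium and 109, 227 and 83.6 CPM of immune cells, a log2 difference of 3.87 ± 0.60 (edgeR adjusted p = 0.00037). Rrm2, the inducible subunit of ribonucleotide reductase, differed by 3.67 ± 0.57, whereas its partner Rrm1 differed by 0.24 ± 0.39 (edgeR adjusted p = 0.0004 and 0.646). The clamp itself, Pcna, stood at 19.7, 31.1 and 31.4 CPM in epithelium and 20.2, 53.5 and 60.6 CPM in immune cells, groups that overlap (log2 difference 0.59 ± 0.27, edgeR adjusted p = 0.0951). Tyms, which makes thymidylate, stood at 34.2, 30 and 26.8 CPM against 22.8, 69.9 and 11.5 CPM and did not pass the test (log2 difference 0.09 ± 0.38, edgeR adjusted p = 0.866). Of the 6 helicase subunits, Mcm3, Mcm4 and Mcm5 were called higher in immune cells, by 2.74, 1.10 and 2.41. The most abundant subunit over all cells, Mcm7, stood at 19.8, 21.7 and 21.9 CPM in epithelium and 18.0, 53.5 and 23.1 CPM in immune cells, overlapping ranges (log2 difference 0.50 ± 0.31, edgeR adjusted p = 0.223). Of the licensing genes, Cdt1 was called higher by 1.61 ± 0.39, while Gins2, a subunit of the active helicase, stood at 9.95, 11.1 and 7.94 CPM against 11.1, 25 and 2.88 CPM and was not called (edgeR adjusted p = 0.415). Mcm7, Pclaf, Gins2, Ube2c, Cdc20, Ccna2, Prc1 and Nusap1 overlap a named gene on the opposite strand (such as Cops6 and Ap4m1 for Mcm7, or Trip4 for Pclaf), and Stmn1, Top2a, Kif11, Rrm1, Cdt1, Nusap1, Tpx2, Pclaf and Mcm7 overlap an annotated gene on their own strand (a microRNA for Tpx2 and Mcm7), so their counts are less certain.

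**Figure D2:**
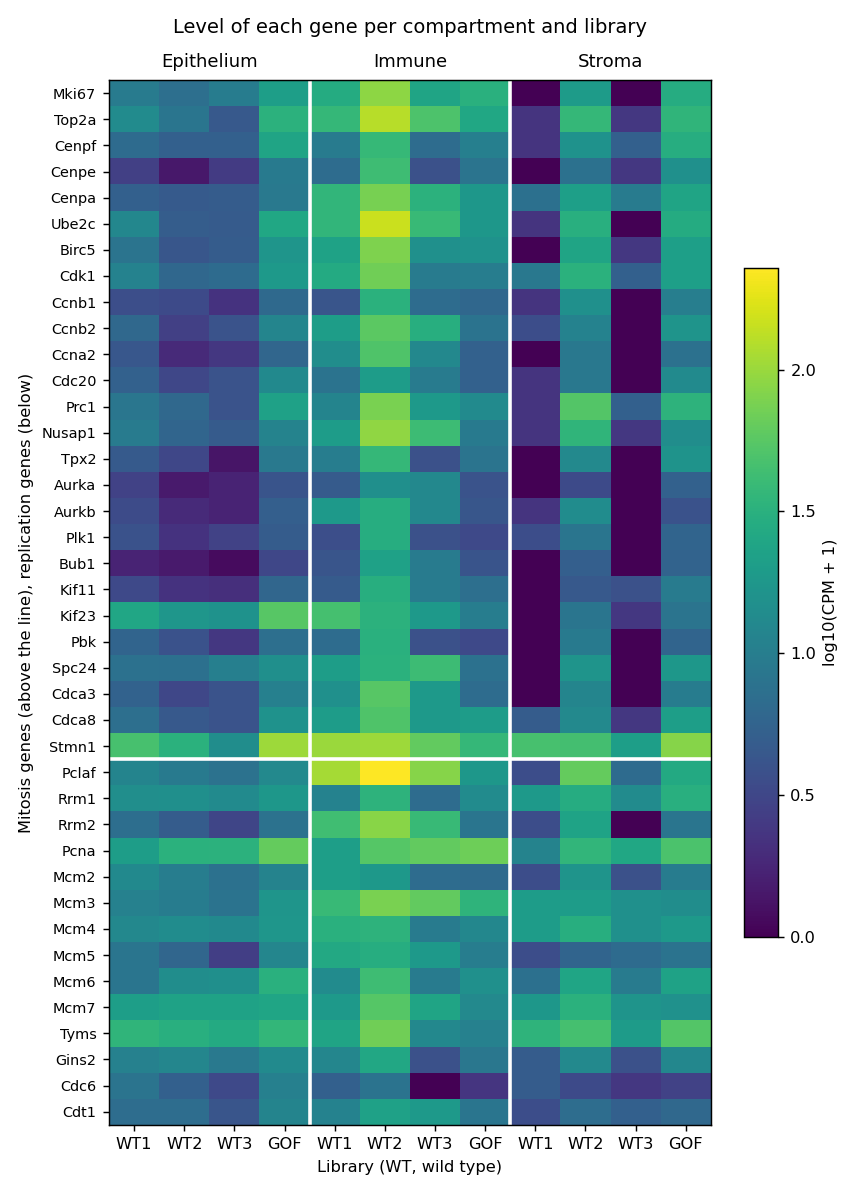
Level of each of the 40 genes, as log10(CPM + 1), in epithelium, immune cells and stroma of each library (WT1 to WT3, wild type). Wild-type library 2 is bright across immune cells, and the stroma of wild-type libraries 1 and 3 is dark for the mitosis genes, with 12 and 14 of 26 at 0 UMIs.

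Sums can be moved by a few very active cells, so cells were also counted. Each cell was thinned at random to 2000 UMIs, shallower cells were left out, and a cell was counted when at least 3 of the 40 genes had a UMI. In wild-type immune cells the count was 24 of 230, 32 of 167 and 6 of 83 in libraries 1, 2 and 3, which is 10.4%, 19.2% and 7.23% (exact Clopper-Pearson 95% intervals 6.80 to 15.1%, 13.5 to 26% and 2.70 to 15.1%). In wild-type epithelium it was 76 of 2899, 19 of 1397 and 10 of 729, which is 2.62%, 1.36% and 1.37% (intervals 2.07 to 3.27%, 0.821 to 2.12% and 0.660 to 2.51%). The immune share was above the epithelial share in each wild-type library, and only counting error is covered by these intervals. At 1000 UMIs, where 675 rather than 230 immune cells of library 1 were counted, the immune shares were 3.11%, 10.6% and 4.72% in the wild-type libraries and 2.09% in the GOF library, and the wild-type epithelial shares were 1.46%, 1.02% and 0.694%. The GOF library had the reverse order, with 333 of 4433 epithelial cells (7.51%, 6.75 to 8.33%) and 76 of 1985 immune cells (3.83%, 3.03 to 4.77%). Over the 4 libraries the immune share was higher in 3, with a mean difference of 6.95 percentage points and an exact two-sided sign-flip permutation p of 0.25 (adjusted 0.625 over 5 comparisons). The smallest p that 4 libraries allow is 0.13. Stromal shares were 0.694%, 5.49% and 0.826% in wild-type libraries 1, 2 and 3 and 4.5% in the GOF library. Immune minus stroma was positive in the 3 wild-type libraries and negative in the GOF library (mean 7.29 points, exact permutation p = 0.25, adjusted 0.625).

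The count leaves out shallow cells and has a threshold. Thinning left out 633, 139, 181 and 287 epithelial and 391, 624, 110 and 50 immune cells in the GOF library and wild-type libraries 1, 2 and 3, so that most wild-type immune cells of library 1 were not counted. Without thinning the shares were 45.3, 26.7, 19.3 and 11.4% in epithelium and 19.7, 4.57, 19.1 and 6.77% in immune cells, and the epithelial values fell in the order of the libraries' median depth. Of the 333 GOF epithelial cells past the threshold, 128 had exactly 3 of the genes and 72 had 10 or more, and 460 cells had exactly 2. In wild-type library 1 the corresponding epithelial counts were 28, 22 and 158. In immune cells of wild-type library 2, 18 of 32 cells past the threshold had 10 or more genes, against 2 of 19 epithelial cells of that library. Neutrophil-gated cells were counted beside them, since mature neutrophils are known not to divide. Past the threshold were 2 of 56 neutrophils of the GOF library and 0 of 33, 0 of 6 and 2 of 13 of the wild-type libraries. Both cells of library 3 held 10 or more of the genes, so that the gate of that library is no measure of background. At 1000 UMIs, where more neutrophils can be counted, the numbers were 0 of 295, 0 of 417, 0 of 25 and 2 of 23, beside epithelial shares of 4.19%, 1.46%, 1.02% and 0.694%. At 2000 UMIs, 0 of 33 neutrophils in library 1 allows a share of up to 9.09% by the limit of 3 counts (exact upper bound 10.6%). Cells past the threshold were deeper before thinning, with medians of 13060 UMIs against 8354 in GOF epithelium and 7657.5 against 4151 in immune cells of wild-type library 2. Whether more RNA per cell goes with division in these cells was not tested.

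**Figure D3:**
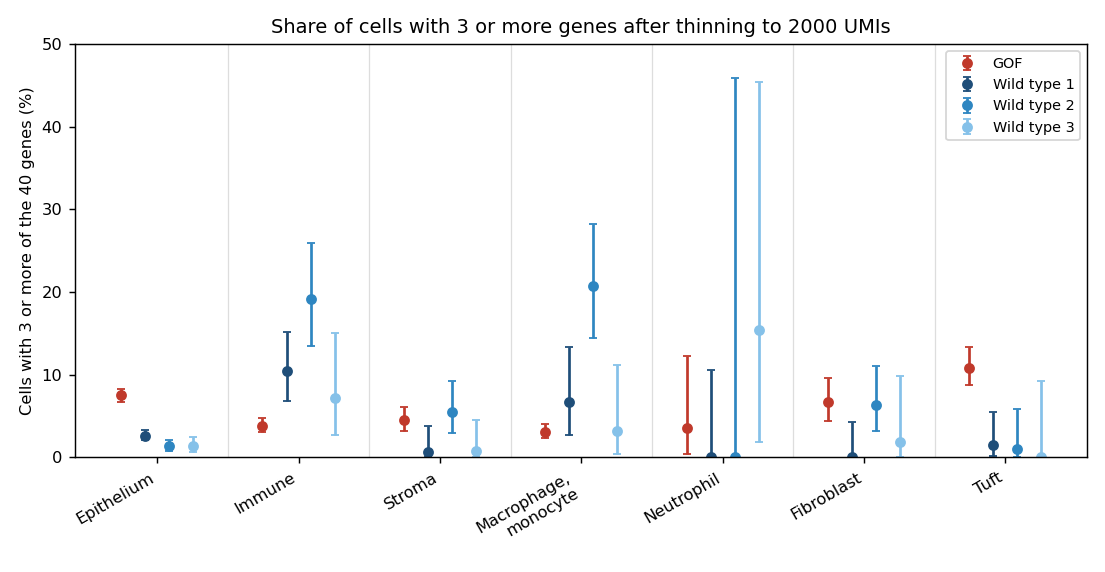
Share of cells with 3 or more of the 40 genes after thinning to 2000 UMIs, by class and library, with exact 95% binomial intervals. The GOF share is the highest in epithelium and tuft-gated cells and below the wild-type shares in all immune cells together, and the wide intervals of neutrophils rest on 6 to 56 cells per library.

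Cells past the threshold were found in several immune classes, in different numbers in each library. Macrophages and monocytes held 30 of 145 counted cells past the threshold in wild-type library 2 (20.7%), 7 of 104 in library 1 (6.73%), 2 of 62 in library 3 (3.23%) and 50 of 1600 in the GOF library (3.12%). B cells gave 10 of 49 (20.4%) in wild-type library 1 and 0 of 15 in the GOF library. T cells gave 12 of 126 (9.52%) in the GOF library and 3 of 18 in wild-type library 1, and dendritic cells gave 7 of 52 in the GOF library. Immune cells that fit no finer class gave 4 of 19, 2 of 11 and 2 of 7 in wild-type libraries 1, 2 and 3 and 4 of 93 in the GOF library, and UMIs of the 40 genes made up 29.4, 16.8 and 28.6 of every 10000 of their UMIs in the wild type and 6.29 in the GOF library. The immune gate differed in makeup, with 591 neutrophils among 854 immune cells in wild-type library 1 and 1655 macrophages and monocytes among 2376 in the GOF library, and the part of this makeup in the immune result was not tested. UMIs of the 40 genes made up 8.41, 24.5 and 6.10 of every 10000 macrophage and monocyte UMIs in wild-type libraries 1, 2 and 3, and 1.67, 2.11 and 11.9 of every 10000 neutrophil UMIs. The high neutrophil value in library 3 rests on 23 cells. Against epithelium without tuft-gated cells, 9 of 15 genes tested were higher in wild-type macrophages and monocytes and 0 were lower (edgeR; background 22.2% higher, 24.1% lower). The 9 were Mki67, Top2a, Cenpa, Ube2c, Prc1, Nusap1, Stmn1, Pclaf and Mcm3. The count was 13, 6 or 21 without wild-type library 1, 2 or 3, with 16, 10 or 28 members tested. Beside these stood 1490 of 7478, 1468 of 7954 and 1831 of 10470 genes called higher. The filter on low counts was set over all classes of this fit. Genes scarce in epithelium can thus have passed it through classes where they were high. How many of the 15 did was not counted, so the count supports no difference. Without the filter, 31 of 40 were higher and 0 lower in macrophages and monocytes, beside 2338 and 3254 of 20178 genes. In neutrophils, 1 of 15 genes tested was higher and 2 were lower (background 21.6% higher, 30.3% lower). Kif23 was higher by 2.13 ± 0.44 (edgeR adjusted p = 0.00044), while Stmn1 and Tyms were lower, with differences of -1.79 ± 0.73 and -3.35 ± 0.96 (edgeR adjusted p = 0.0419 and 0.00519). Without wild-type library 2 the Kif23 call was lost, and without library 1 the Stmn1 difference was 0.21 and neither lower call remained.

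**Figure D4:**
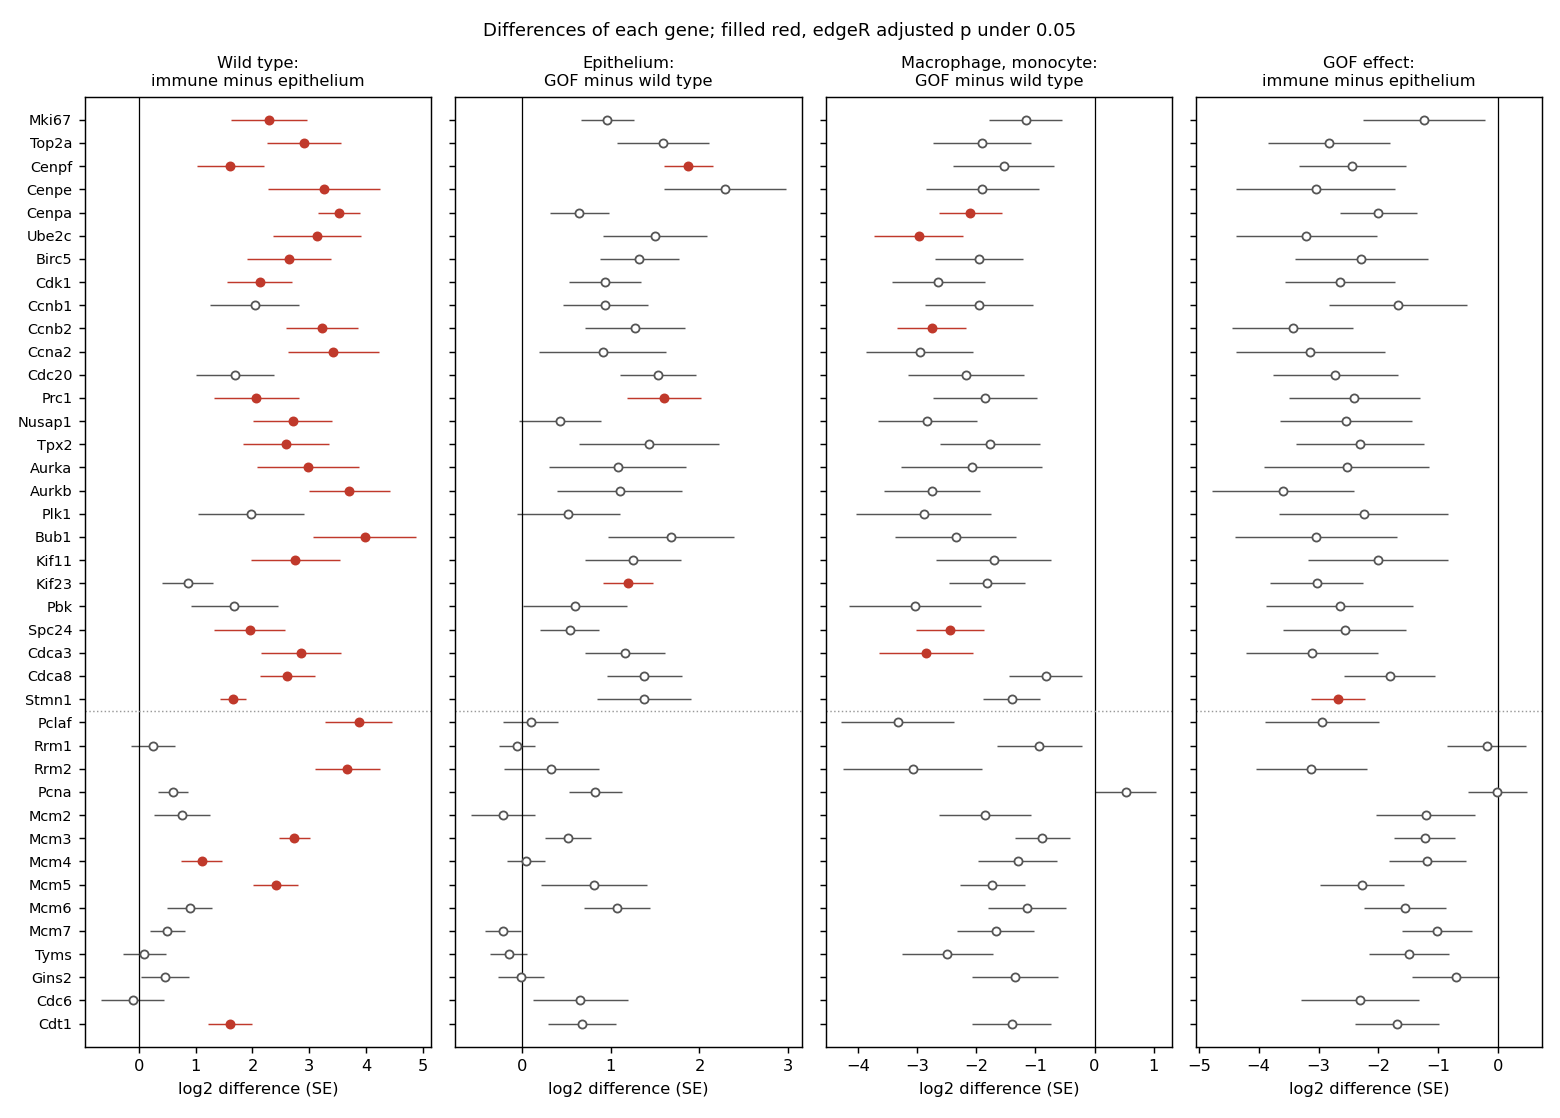
Log2 difference of each of the 40 genes (point) with its SE (bar) in 4 comparisons, with mitosis genes above the dotted line and replication genes below it. Filled red points have an edgeR adjusted p under 0.05: 27 genes between wild-type immune cells and epithelium, 3 in GOF epithelium, 5 in GOF macrophages and monocytes, and Stmn1 in the difference between the GOF effects.

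In wild-type stroma, few of the genes differed from epithelium: 2 of 40 were higher and 1 was lower (edgeR; background 19.1% higher, 16.9% lower). Cenpa was higher by 1.40 ± 0.42 and Mcm3 by 0.88 ± 0.29, and Kif23 was lower, with a difference of -2.41 ± 0.61 (edgeR adjusted p = 0.0231, 0.0382 and 0.00947). These calls depended on single libraries: without library 2, 0 members were higher and 5 were lower, and without library 1 there were 11 higher and 1 lower. Without library 3 neither direction had a member called. Over all genes, 1953 were higher and 1303 lower of 10984 without library 2, and 2044 and 1615 of 11050 without library 1. Fibroblasts against epithelium without tuft-gated cells gave the same calls for Cenpa and Kif23, 1 higher and 1 lower of 15 tested (background 17.8% higher, 17.5% lower). Their differences were 1.61 ± 0.51 and -1.93 ± 0.57 (edgeR adjusted p = 0.0151 and 0.0101). The higher count ran from 0 to 5 and the lower count from 0 to 1 when 1 library was left out. The 15 genes are those tested for macrophages and neutrophils above, with the same limit of the filter.

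In the epithelium of the GOF duct, the mitosis genes had levels above the wild-type range, and 3 of them passed the test. UMIs of the 26 mitosis genes made up 4.41 of every 10000 epithelial UMIs in the GOF library, against 1.99, 1.21 and 1.00 in wild-type libraries 1, 2 and 3. The 14 replication genes made up 2.75, against 1.75, 1.79 and 1.56. Mitosis over replication UMIs gave a ratio of 1.61 for the GOF library, against 1.14, 0.673 and 0.643 for the wild-type libraries. As levels, 39 of 40 genes were above all 3 wild-type libraries. The share of all genes above all 3 was not counted, so this count by itself shows nothing particular to the members. After scaling by TMM (trimmed mean of M values), the log2 difference was positive for 26 of 26 mitosis genes (median 1.23) and 9 of 14 replication genes (median 0.22), over the 15786 genes tested. The test called 3 of 40 genes higher and 0 lower, a smaller share than the background of 12.2% called higher and 4.5% called lower. The fit takes the single GOF library to vary as the wild-type libraries do. Without TMM, which moves the median of all genes by 0.37, all 40 differences were positive and 11 were called, beside 3089 of 15786 genes. Without wild-type library 1, 2 or 3 the count was 14, 1 or 10, beside 2008 of 14525, 1169 of 16298 and 2507 of 16318 genes.

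Cenpf stood at 22.7 CPM in the GOF epithelium and 5.64, 4.25 and 4.24 CPM in wild-type libraries 1, 2 and 3. Its log2 difference was 1.88 ± 0.27 (edgeR adjusted p = 0.0108), and it passed the test without any 1 of the wild-type libraries. Cenpf lies on chromosome 1 at 189640606 to 189688086 on the minus strand (mm10). Prc1, which crosslinks antiparallel microtubules of the central spindle, stood at 21.4 CPM against 7.5, 5.23 and 3.00 CPM (log2 difference 1.60 ± 0.41, edgeR adjusted p = 0.0497). Kif23 stood at 55.1 CPM against 23.9, 16.4 and 14.8 CPM (log2 difference 1.20 ± 0.28, edgeR adjusted p = 0.0399). For all 3 genes the GOF library lay above every wild-type library, yet without wild-type library 2 Prc1 and Kif23 were not called (edgeR adjusted p = 0.0896 and 0.0937). Both act in cytokinesis, at the midzone between the separating chromosomes.

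Other abundant members were high in the GOF epithelium without passing the test. Stmn1 stood at 102 CPM against 45.6, 31.2 and 13.2 CPM in wild-type libraries 1, 2 and 3, and differed by 1.37 ± 0.53 (edgeR adjusted p = 0.124). Mki67 stood at 20 CPM against 8.66, 6.21 and 8.82 CPM (log2 difference 0.96 ± 0.30, edgeR adjusted p = 0.0760). Top2a stood at 31.9 CPM against 12.7, 7.19 and 3.53 CPM (log2 difference 1.59 ± 0.52, edgeR adjusted p = 0.0874). In each case the GOF value was above all 3 wild-type values, whose own spread was wide. Of the replication genes, Pcna stood at 62.7 CPM against 19.7, 31.1 and 31.4 CPM (log2 difference 0.83 ± 0.30, edgeR adjusted p = 0.110). The difference of Tyms was smaller than its SE, with levels of 35.6 CPM against 34.2, 30 and 26.8 CPM (log2 difference -0.15 ± 0.21, edgeR adjusted p = 0.654). Mcm7 changed sign with the scaling, with levels of 23.5 CPM against 19.8, 21.7 and 21.9 CPM (log2 difference -0.21 ± 0.20). Intron length moved with the genotype over all genes: genes with at most 5 kb of intron had a median log2 difference of -0.39 and longer ones 0.12. The 13 members with at most 5 kb had a median of 0.91 and the 27 longer ones 0.96, a split chosen after the data were seen. All 3 called members were among the longer ones. Over all genes, 157 of 3561 with at most 5 kb and 1774 of 12225 longer ones were called higher. The part of intron length in the calls was not tested.

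In the GOF immune compartment, 24 of the 40 levels lay below all 3 wild-type libraries and 1 lay above them. The shares over all genes were not counted, so these counts by themselves show nothing particular to the members. The log2 difference from wild type was negative for 39 of 40 genes in immune cells (median -1.58), with Pcna the exception at 0.58, and the median over all 10219 genes tested was -0.09. The edgeR test called 0 of the 40 (background 2.62% higher, 0.254% lower). At an unadjusted p under 0.05, 15 were lower, beside 1814 of all 10219 genes in either direction. DESeq2 called 3 lower and limma-voom 6, beside 157 and 185 of all genes. Without wild-type library 1, 2 or 3, edgeR called 17, 4 or 0 lower, beside 248 of 9524, 337 of 10687 and 22 of 10429 genes. Pclaf stood at 16.5 CPM in the GOF library against 109, 227 and 83.6 CPM in wild-type libraries 1, 2 and 3, with the GOF value below all 3. Mki67 overlapped, at 30.4 CPM against 27.1, 88.9 and 23.1 CPM, and its log2 difference of -0.73 ± 0.74 became 0.12 without library 2. Macrophages and monocytes, the largest immune class of the GOF library, had 5 of 39 genes lower and 0 higher (background 7.53% higher, 2.1% lower). Ccnb2 stood at 6.14 CPM against 26.5, 61.4 and 27.6 CPM (log2 difference -2.76 ± 0.58, edgeR adjusted p = 0.0118). Ube2c stood at 12.5 CPM against 70.0, 170.1 and 31.5 CPM (log2 difference -2.98 ± 0.76, edgeR adjusted p = 0.0309). Cenpa, Spc24, a kinetochore subunit, and Cdca3, a trigger of mitotic entry, had differences of -2.10, -2.45 and -2.85 (edgeR adjusted p = 0.0317, 0.0203 and 0.0448). Library 2 was the highest wild-type library for 38 of 40 genes in this class, and without it Ccnb2, Ube2c and Cenpa were still called while Spc24 (0.0743) and Cdca3 (0.398) were not. The count was 26, 4 or 17 without library 1, 2 or 3, with 39, 24 or 39 genes tested. Of all genes, 362 of 8835, 338 of 7781 and 227 of 8722 were called lower there. The filter on low counts had a level of 12.2 CPM in this class with all libraries. Genes scarce in the GOF library, such as Ccnb2, thus passed it only through the wild type, where they were high. How many did was not counted, so the number of genes called is no support by itself.

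Whether the GOF difference itself was unlike in the 2 compartments was tested as an interaction, immune minus epithelium. It was negative for 40 of 40 genes (median -2.36, with 0.18 over all 15464 genes tested). Of the 40, 1 was called, lower, and 0 higher (background 0.162% higher, 0.175% lower). At an unadjusted p under 0.05, 28 were lower, beside 1401 of all genes in either direction. The called gene was Stmn1, whose interaction was -2.68 ± 0.46 (edgeR adjusted p = 0.0206). In immune cells it stood at 36.4 CPM in the GOF library and 99.7, 101 and 60.6 CPM in wild-type libraries 1, 2 and 3, below all 3, whereas in epithelium it was above all 3. Without wild-type library 3 the interaction of Stmn1 had an edgeR adjusted p of 0.0946. Without library 1 or 2 the number of members called lower rose to 26 or 8, beside 214 of 15892 and 264 of 15949 genes. The 2 compartments of a library share its reads, and both differences use the same 4 libraries.

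In the GOF stroma, the summed level of the genes lay within a wild-type range whose top was set by library 2, and in GOF fibroblasts it lay above that range. UMIs of the 40 genes made up 7.32 of every 10000 stromal and 10.2 of every 10000 fibroblast UMIs in the GOF library. Wild-type fibroblasts gave 1.88, 8.27 and 1.93 in libraries 1, 2 and 3, and 17 and 18 of the 40 genes had no UMI in libraries 1 and 3. The edgeR test called 0 of 32 stromal genes (background 4.85% higher, 0.775% lower) and 0 of 31 fibroblast genes (background 3.16% higher, 0.371% lower). At an unadjusted p under 0.05 there were 0 in stroma and 5 higher in fibroblasts. Beside them stood 2125 of 11094 and 1587 of 9974 of all genes in either direction. DESeq2 and limma-voom called 0 members in either class. Without wild-type library 2, 12 of 23 stromal and 10 of 16 fibroblast genes were called higher, beside 1017 of 9615 and 696 of 7254 of all genes. Of those members, 16 of 23 and 13 of 16 passed the filter on low counts only through the GOF library, where they were high, so these counts support no difference. The interaction of stroma minus epithelium had 0 members called (background 0.0323% higher, 0.0711% lower). At an unadjusted p under 0.05, 1 was lower, beside 680 of all 15464 genes in either direction. Without library 2, 2 members were called higher, beside 57 of 15949 genes. At 2000 UMIs, 27 of 404 fibroblasts of the GOF library (6.68%) had 3 or more of the genes, against 0 of 83, 11 of 173 and 1 of 54 in the wild-type libraries. The count of 0 in library 1 allows a share of up to 3.61% by the limit of 3 counts (exact upper bound 4.35%).

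Within the epithelial gate, cells with 2 or more tuft markers (tuft cells are chemosensory epithelial cells) held 3 or more of the genes in a larger share in the GOF library. At 2000 UMIs, 82 of 755 tuft-gated cells of the GOF library (10.9%, 8.73 to 13.3%) had 3 or more of the genes, against 2 of 130, 1 of 93 and 0 of 38 in the wild-type libraries. UMIs of the 40 genes made up 8.26 of every 10000 UMIs there, against 2.61, 2.65 and 1.64. The edgeR test called 18 of 38 genes higher and 0 lower (background 12.1% higher, 5.0% lower), and DESeq2 called 6 higher. That count supports no difference, since 21 of the 38 genes, 20 of them mitosis genes, passed the filter on low counts only through the GOF library. Of the 17 that reached the filter's level in a wild-type library, 4 were called higher: Top2a, Kif23, Spc24 and Stmn1. Stmn1 had 2306 GOF UMIs against 99, 46 and 5 wild-type UMIs, a log2 difference of 1.75 ± 0.32 (edgeR adjusted p = 0.00184). Top2a had 826 UMIs against 20, 3 and 0, and Mki67 511 against 7, 1 and 1. These cells went against their label in the GOF library: Dclk1 was detected in 95.6% and Avil in 84.2%, but the defining tuft genes Trpm5 and Ltc4s in 27.3% and 40.1%, against 69.7% to 79.6% and 82.8% to 98% in the wild-type libraries. With 3 tuft markers required, 18 of 253 GOF cells (7.11%) passed the threshold, against 0 of 94, 1 of 69 and 0 of 34 in the wild-type libraries. This GOF share was near the 6.82% of GOF epithelium outside the tuft gate. Tuft-gated GOF cells had a median of 19820 UMIs, against 7352 in other GOF epithelium. Wild-type tuft-gated cells had medians of 10367, 5033 and 2518 UMIs in libraries 1, 2 and 3. The part of depth in the tuft result was not tested. Without wild-type library 1 no gene of the whole table was called, and neither were these. Without library 2 or 3 the count was 17 or 27, beside 937 of 12013 and 1911 of 12006 genes.

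The 40 genes differed in how well they marked cells that held the others. Among epithelial cells of the 4 libraries thinned to 2000 UMIs, 91.7% of the 36 with a Ccna2 UMI and 89.2% of the 37 with an Aurkb UMI held 3 or more of the other members. The share was 71.2% for Mki67 and 64.9% for Pclaf. It was only 11.5% of 563 cells for Kif23, 13.7% of 699 for Pcna, 16.2% of 573 for Tyms and 25% of 731 for Stmn1. Most epithelial cells with a UMI of one of these 4 genes thus held fewer than 3 other members at this depth. In immune cells the shares were 44.2% for Kif23, 60.8% for Stmn1, 52.1% for Tyms and 12.3% for Pcna, and 95.1% for Rrm2 and 89.7% for Pclaf. Cells are pooled over libraries here, and the shares are a description without a test.

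**Figure D5:**
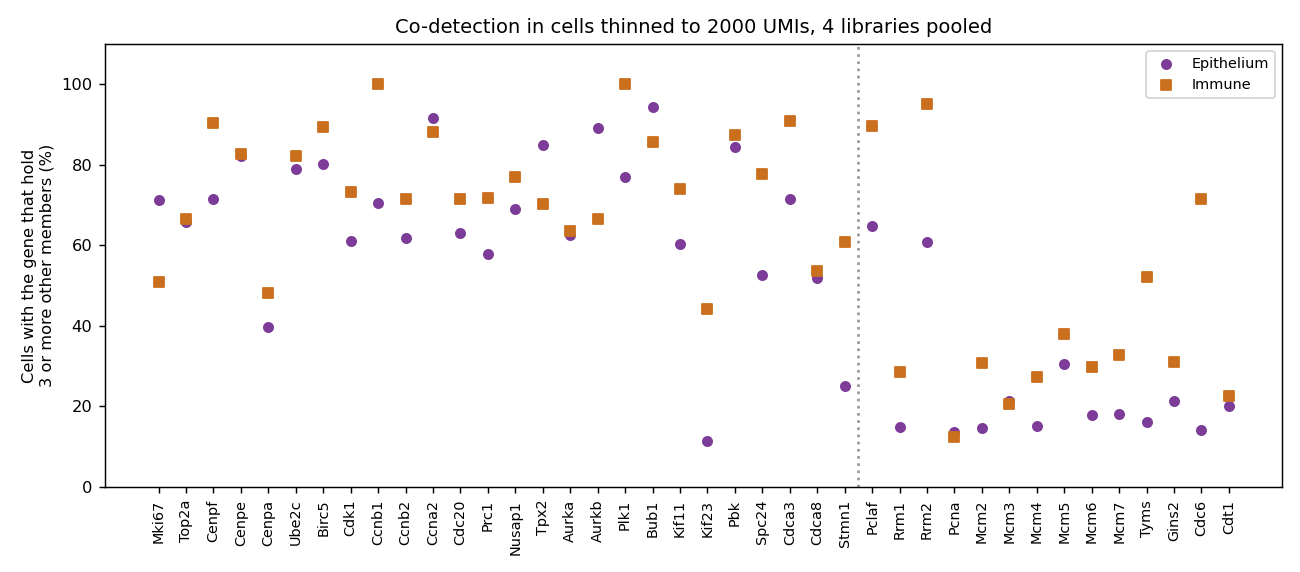
Share of cells with a UMI of each gene that hold 3 or more of the other 39 genes, in epithelium (circles) and immune cells (squares), 4 libraries pooled after thinning to 2000 UMIs. Kif23, Stmn1 and most replication genes lie far below most other mitosis genes in epithelium, and Pclaf and Rrm2 stand out among the replication genes in both classes (Cdc6 in immune cells rests on 7 cells).

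Of all counted cells with 3 or more of the genes, epithelium made up 67.5% of 493 in the GOF library, where it was 57.4% of all counted cells. In wild-type libraries 1, 2 and 3 it made up 72.4% of 105, 26.8% of 71 and 40% of 25, where it was 84.4%, 71.5% and 60.4% of counted cells. Immune cells made up 22.9%, 45.1% and 24% of such cells in the wild-type libraries from 6.70%, 8.55% and 6.88% of counted cells, and 15.4% from 25.7% in the GOF library. Epithelial RNA was seen in some of these immune cells: Epcam was detected in 30.3% and 28.1% of those of the GOF library and wild-type library 2, and in 0 of those of libraries 1 and 3, against 13% to 18.5% of the other immune cells. In GOF stroma it was detected in 32.4% of the 37 such cells against 16.1% of the others, with medians of 17834 and 6092 UMIs before thinning, and in stroma of wild-type library 2 in 15.4% against 13.8%. The part of epithelial RNA or of doublets in the immune and stromal results was not tested.

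Further cell-cycle genes outside the 40 were followed as 3 lists: 30 other mitotic genes, 30 other replication genes and 13 regulators of G1. Between wild-type immune cells and epithelium, 16 of 21 other mitotic genes tested were higher and 1 was lower, 11 of 22 other replication genes were higher, and 7 of 12 G1 regulators were higher, beside the background of 21.2% higher and 23.9% lower. How many of these passed the filter on low counts through immune cells alone was not counted, so these counts too support no difference by themselves. Dlgap5, a spindle assembly factor, differed by 3.91 ± 0.77 (adjusted p = 0.00184), and the transcription factor E2f1 by 3.44 ± 0.55 (adjusted p = 0.00045) by edgeR. Cyclin E1, Ccne1, which drives entry into S phase, differed by 3.08 ± 0.99 (adjusted p = 0.0265), and the tubulin Tubb4b was the lower gene, at -1.13 ± 0.22 (adjusted p = 0.00181) by edgeR. In GOF epithelium, 2 of 30 other mitotic, 3 of 30 other replication and 4 of 13 G1 genes were higher and 0 were lower, beside a background of 12.2% higher, which the mitotic and replication shares did not reach. The D cyclins, which carry growth signals to the retinoblastoma protein, were among the latter: Ccnd3 differed by 2.03 ± 0.19 (adjusted p = 0.00335) and Ccnd2 by 1.86 ± 0.24 (adjusted p = 0.00747) by edgeR. The replication genes were Pola1, a subunit of DNA polymerase alpha, at 1.83 ± 0.27 (adjusted p = 0.0112), with Hells and Nasp, by edgeR. In GOF macrophages and monocytes, Ccnd2 was higher by 3.23 ± 0.40 (adjusted p = 0.00083) by edgeR, while the mitosis members named above were lower.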

How the data were processed

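The authors deposited filtered 10x matrices of raw UMI counts per gene and cell, 1 per library. Per the file headers these came from Cell Ranger 7.0.0 (32285 genes, GOF) and 3.0.2 (31053 genes, wild type), while the submitters' processing notes name Cell Ranger 7.1 and mm10. Whether intronic reads were counted is not given in the sources used here. Genes were joined by Ensembl identifier (30406 shared).

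Deposited matrices held 113596685, 43737469, 17358894 and 9558637 UMIs in the GOF library and wild-type libraries 1, 2 and 3. Cells needed at least 500 genes and at most 25% mitochondrial UMIs. Scrublet's own threshold called 0 to 283 cells per library, so its top scorers were left out at 0.8% per 1000 barcodes (45 to 872 cells). A lineage needed 3 markers and a lead of 2, and a finer type 2 markers. UMIs were summed per library and class and tested with edgeR 4.0.16 (quasi-likelihood, TMM, filterByExpr, Benjamini-Hochberg). The wild-type class comparisons had the library as a block, since both classes come from the same suspension. DESeq2 1.42.0 and limma-voom (limma 3.58.1) were alternatives, as were no TMM, no count filter, doublets kept and leaving out each wild-type library. The edgeR steps were run on simulated counts with known changes, as a check of the code. The simulation used a set spread, so it does not show how the test performs at the spread of these libraries. Shares used scanpy 1.11.5 and scipy 1.17.1.

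The members and lists were chosen with earlier results of these data known. Values per library were given for Mki67, Top2a, Pcna, the most abundant member of each role and called members, and beyond this rule for members chosen after their values were seen (Cenpa, Pclaf, Bub1, Aurkb, Rrm1, Rrm2 and those in the co-detection).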

Additional observations from a re-analysis of the deposited data

Results flagged for a closer look

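The difference between GOF and wild type was not the same in immune cells and epithelium for Stmn1, the stathmin gene, by a test of the difference itself: the interaction was -2.68 ± 0.46 on the log2 scale (SE, edgeR adjusted p = 0.0206). It was -3.0, -2.65 and -2.52 without wild-type library 1, 2 and 3, with an edgeR adjusted p of 0.0946 in the last case.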

How the results depend on the processing

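Of 607 alternatives for 77 single-gene differences, 518 kept direction and side of the threshold, 76 fell short of it, 11 newly passed it and 2 reversed: Mki67 in GOF immune cells without wild-type library 2 (-1.02 to 0.12 with 1 library left out) and Stmn1 in neutrophils without library 1 (-2.89 to 0.21). The causes were not tested. Members called higher in GOF epithelium numbered 11 without TMM, 5 by DESeq2, 10 by limma-voom and 5 without the count filter. Beside them stood 3089, 1932 and 3380 of 15786 genes, and 2275 of 22585 without the filter. With 1 wild-type library left out the count was 1 to 14. Members called lower in GOF immune cells numbered 3, 6 and 10 by DESeq2, limma-voom and no filter, beside 157 and 185 of 10219 and 308 of 19445 genes. With a library left out the count was 0 to 17. In GOF macrophages and monocytes there were 11 lower without TMM, 19 by limma-voom and 17 without the filter. Beside them stood 209 and 618 of 8428 and 355 of 18293 genes. The count was 4 to 26 with a library left out. GOF stroma had 0 to 12 higher with a library left out, fibroblasts 5 without the filter and 0 to 10, and tuft-gated cells 6 by DESeq2 and 0 to 27. Over all genes, 780 of 18275 were higher in fibroblasts without the filter and 509 of 11703 in tuft-gated cells by DESeq2. The interaction counts ran from 0 to 26 lower for immune cells and from 0 to 2 higher for stroma.

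In the wild type, leaving out a library gave 16 to 30 genes higher in immune cells, 0 to 11 higher and 0 to 5 lower in stroma, 6 to 21 higher in macrophages, 0 to 5 higher and 0 to 1 lower in fibroblasts, and 0 to 1 higher and 0 to 4 lower in neutrophils. Without the count filter there were 31 higher in macrophages, 4 higher in fibroblasts and 6 lower in neutrophils, beside 2338, 2408 and 3715 of 20178 genes. With doublets kept, 2 were higher in fibroblasts, and DESeq2 called 1 lower in neutrophils. Without the replicate block, 24 members were higher in immune cells, 2 higher in fibroblasts and 1 lower in neutrophils. Beside them stood 2373 of 11224, 1278 of 7733 and 2242 of 7733 genes. No paired analysis was possible for GOF against wild type because the GOF group has 1 library.

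Shares of cells with 3 or more genes moved with the threshold. Thinned to 1000 UMIs they were 4.19%, 2.09%, 2.09%, 1.76% and 3.72% in GOF epithelium, immune cells, stroma, macrophages and fibroblasts. At 3000 UMIs they were 11.8%, 6.09%, 6.41% and 5.02% in the first 4 classes, and the wild-type mean in epithelium was 4.2%. With 2 or more genes they were 17.9%, 10.4%, 9.61%, 8.88% and 11.1%, with wild-type means of 7.68% in epithelium, 6.79% in stroma and 7.95% in fibroblasts. With 5 or more genes they were 3.43%, 2.22%, 2.07%, 1.75% and 3.96%, and 0.950% in wild-type epithelium. Without Stmn1, Pcna and the Mcm genes they were 3.79%, 2.42%, 2.55% and 1.94% in the first 4, and 0.985% in wild-type epithelium. Thinning to 2000 UMIs left out 139 to 287 wild-type epithelial, 50 to 624 immune and 44 to 178 stromal cells per library.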
